A study of Mus musculus with 36 samples.

Results

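Transcripts of 10 heat shock chaperone genes, of 49315 genes counted, were measured in C2C12 cells, an established line of mouse myoblasts (muscle precursors) and the only cell model used. The genes were chosen by name: Hsf1, the transcription factor that switches on the heat shock response, the cytosolic chaperones Hspa1a, Hspa1b, Hspa8, Hsp90aa1 and Hsp90ab1, the partners Hsph1 and Dnajb1, the small heat shock protein Hspb1, and the mitochondrial chaperonin Hspd1. The 18 libraries of polyadenylated RNA fell into 6 groups of 3. Units flown without gravity are called space without gravity, units flown under gravity are called space with gravity, and the ground run is called land. Each regime had libraries treated with nanoceria (cerium oxide nanoparticles at 100 µg/ml in a medium reservoir) and untreated ones. Cells of passage 6 to 10 were seeded on coverslips at 1500 cells per square centimetre, sealed into experiment units, held passively at 25 to 30 °C, and put at 37 °C in an on-board incubator 81 h after launch. They were fixed with RNAlater inside the units on day 9. The ground run was a repeat in the same hardware once the time and temperature record of the flight was known, so space and run cannot be told apart in any comparison with land. Replicates were separate experiment units of 1 cell line, and p-values measure the spread between these units.

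Heat shock chaperones bind unfolded or partly folded proteins and keep them from aggregating, and HSP70 and HSP90 proteins use ATP to do so. In unstressed cells HSF1 is held inactive by chaperones; when unfolded protein draws the chaperones away, HSF1 forms trimers and binds inverted repeats of GAA (heat shock elements) upstream of chaperone genes. In muscle precursor cells the constitutive members help to fold proteins such as myosin and signalling kinases, and the inducible members mark proteotoxic, oxidative or temperature stress.

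RefSeq promoter sequences (GRCm38.p6, from 250 bases before the annotated start to 50 after) were on hand for 6 of the 10 genes, in 9 entries. A pair of inverted repeat units, GAANNTTC or TTCNNGAA (each reads the same on both strands, and the motifs can overlap), was found in 6 of the 9 entries, from 5 of these 6 genes, and in 15.1% of 32851 promoters of that length. For the other 4 genes it was not looked at. A run of 3 units, spaced alike (GAA, TTC, GAA or TTC, GAA, TTC), was found in Hspd1 and Hsph1 and in 0.603% of all promoters. The stretches with pairs upstream of the start used by a promoter entry are given here to show the element in the 5 genes where it was found. Capitals mark the matched units, and all sequences run 5′ to 3′ on the gene's own strand. A match is a description and not a measured binding site.
Hspd1, chr1:55088044-55088091, minus strand: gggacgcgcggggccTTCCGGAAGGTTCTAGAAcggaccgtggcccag
Hspb1, chr5:135887787-135887844, plus strand: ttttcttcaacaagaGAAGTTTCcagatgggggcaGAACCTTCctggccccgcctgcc
Hsph1, chr5:149636347-149636384, minus strand: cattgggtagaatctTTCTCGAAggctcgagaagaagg
Hspa1b, chr17:34959320-34959357, minus strand: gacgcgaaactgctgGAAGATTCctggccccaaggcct
Hspa1a, chr17:34972238-34972275, minus strand: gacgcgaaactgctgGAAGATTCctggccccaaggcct
The Hspa1a and Hspa1b stretches were identical. Hspd1 held 3 overlapping pairs in its entry at 55087883 to 55088182 and no pair in its entry at 55088194 to 55088493. The latter entry has its start at the end of the counted gene span (55088243). The printed Hspd1 stretch lies inside the gene span given below, and the Hsph1 stretch lies partly inside its span, which ends at 149636376. The entries behind both stretches use starts further into the gene. Hspb1 held 2 separate pairs. The run of 3 units in Hsph1 lies after its start and is not shown. No pair was found in the Dnajb1 window.

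Total counts per library were 23858 in the smallest library (space with gravity, nanoceria, replicate 3) and 2986628 to 11378178 in the other 17. In the smallest library 3 counts correspond to 35.7 CPM (counts relative to library size, with edgeR's TMM scaling factors), and it held 2 counts of Hsf1, 10 of Hsp90aa1, 17 of Hsp90ab1, 3 of Hspd1 and none of the other 6 genes. It stayed in the tests, and levels are described over the other 17 libraries where stated. The share of counts taken by 6 dominant genes (Lars2, Gm23935, Gm15564, Gm24270, Gm24187 and Gm25911) had a median of 67.1% on land, 49.8% in space without gravity and 33.0% in space with gravity. Outside those genes, the mitochondrial share had medians of 1.06%, 0.471% and 0.197% in the same order. Myoblast markers were present (Ncam1 with 214583 counts over all libraries, Vim with 47512, Des with 10699 and Myf5 with 8175), though Myod1 and Cdh15 were low at 99 and 122 counts. Vim itself fell in space with gravity against land (−1.39 ± 0.38, SE, log2, edgeR adjusted p 0.0256). The 7 markers of differentiated muscle had 31 (Mybph) to 630 (Acta1) counts, with Tnnt3 at 217, Tnnt1 at 92, Ckm at 79, Myog at 59 and Myh3 at 50, and the markers Ptprc, Epcam, Pecam1 and Hbb-bs of other cell types had 2 to 21 counts.

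Compared per kilobase of transcript, the constitutive cytosolic HSP90, Hsp90ab1, was the most abundant member, at a mean of 484 CPM per kilobase over 17 libraries. The inducible HSP90, Hsp90aa1, followed at 90.6, then the chaperonin Hspd1 at 37.4, the constitutive HSP70 Hspa8 at 34.9 and Hspb1 at 24.7. Dnajb1 (6.82), Hsph1 (4.58), Hsf1 (3.67) and the inducible HSP70 Hspa1b (3.66) were lower, and Hspa1a was lowest at 0.129. Hsp90ab1 exceeded Hsp90aa1 in 17 of 17 libraries and Hsp90aa1 exceeded Hspd1 in 17 of 17, but Hspd1 exceeded Hspa8 in 12, Hspa8 exceeded Hspb1 in 13, Dnajb1 exceeded Hsph1 in 14, Hsph1 exceeded Hsf1 in 10 and Hsf1 exceeded Hspa1b in 11. The last 5 of these neighbouring pairs changed places between libraries. Together the 10 genes held between 0.241% and 0.627% of the counts outside the dominant genes, and Hsp90ab1 alone was 44.5% to 80.4% of the members' counts. Of the 10, 9 passed the filter on low counts and were tested; Hspa1a did not.

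**Figure D1:**
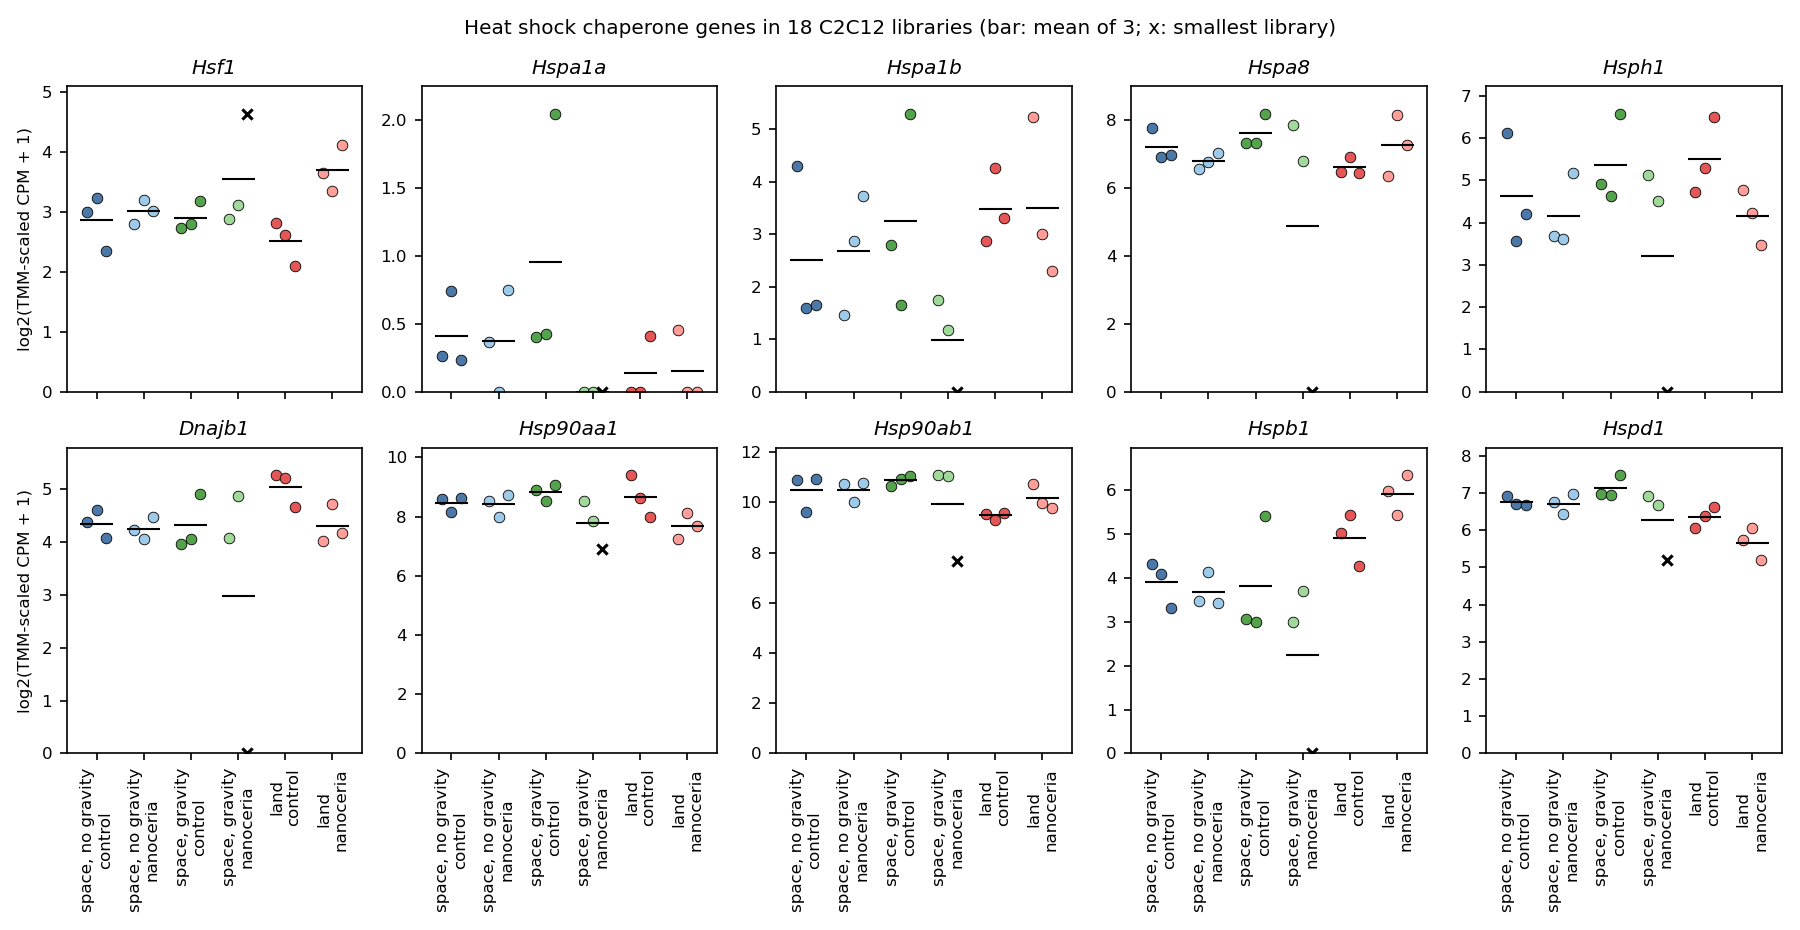
Level of each of the 10 genes in 18 libraries, as log2(TMM-scaled CPM + 1) on the vertical axis, by group on the horizontal axis; points are libraries, bars are means of 3 and crosses are the smallest library, in which 6 genes are at 0. Hspb1 sat at 18.4 to 80.1 CPM on land and at or below 19.1 CPM in space, apart from 1 library at 41.5 CPM.

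Hspb1 was the only chaperone of the 9 tested that passed in a comparison averaged over groups: its level fell in both space regimes against land. Between space with gravity and land 1 of 9 members passed (Hspb1, lower), where 14% of 11558 genes passed, 7.22% of all being higher and 6.74% lower. Between space without gravity and land 1 of 9 passed (Hspb1, lower), where 5.25% of all genes passed, 2.81% being higher and 2.44% lower. With such shares, a count of 1 in 9 is read as no result about the chaperones as a set. The other 8 did not pass in either direction, and their estimates ran from −1.32 to 0.87 (log2) with gravity and from −0.88 to 0.72 without it. The median estimate of the 9 members was 0.14 with gravity, against −0.04 over all genes, and −0.19 without gravity, against −0.02. With DESeq2 size factors in place of TMM the calls over all genes were 628 higher and 1558 lower, against 834 and 779, with gravity, and 261 and 552, against 325 and 282, without gravity. These 2 comparisons share their 6 land libraries. In bulk RNA, fewer cells of a type and less RNA per cell cannot be told apart.

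Withdrawing gravity in space left all 9 members short of the threshold, where 0% of all genes passed. Their estimates lay between −0.43 (Hsph1, SE 0.57) and 0.45 (Hspa1b, SE 0.80), none had an unadjusted edgeR p under 0.05, and 5.85% of all genes did. Nanoceria averaged over the 3 regimes also gave 0 of 9 members and 0% of all genes. At an unadjusted p under 0.05 there was 1 member, Hsph1, against 6.54% of all genes. Of the 9 estimates for nanoceria, 7 were below 0 and the median was −0.32, against −0.03 over all genes. DESeq2 and limma called 0 members in both comparisons too; over all genes DESeq2 called 11 for gravity and 1 for nanoceria.

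**Figure D2:**
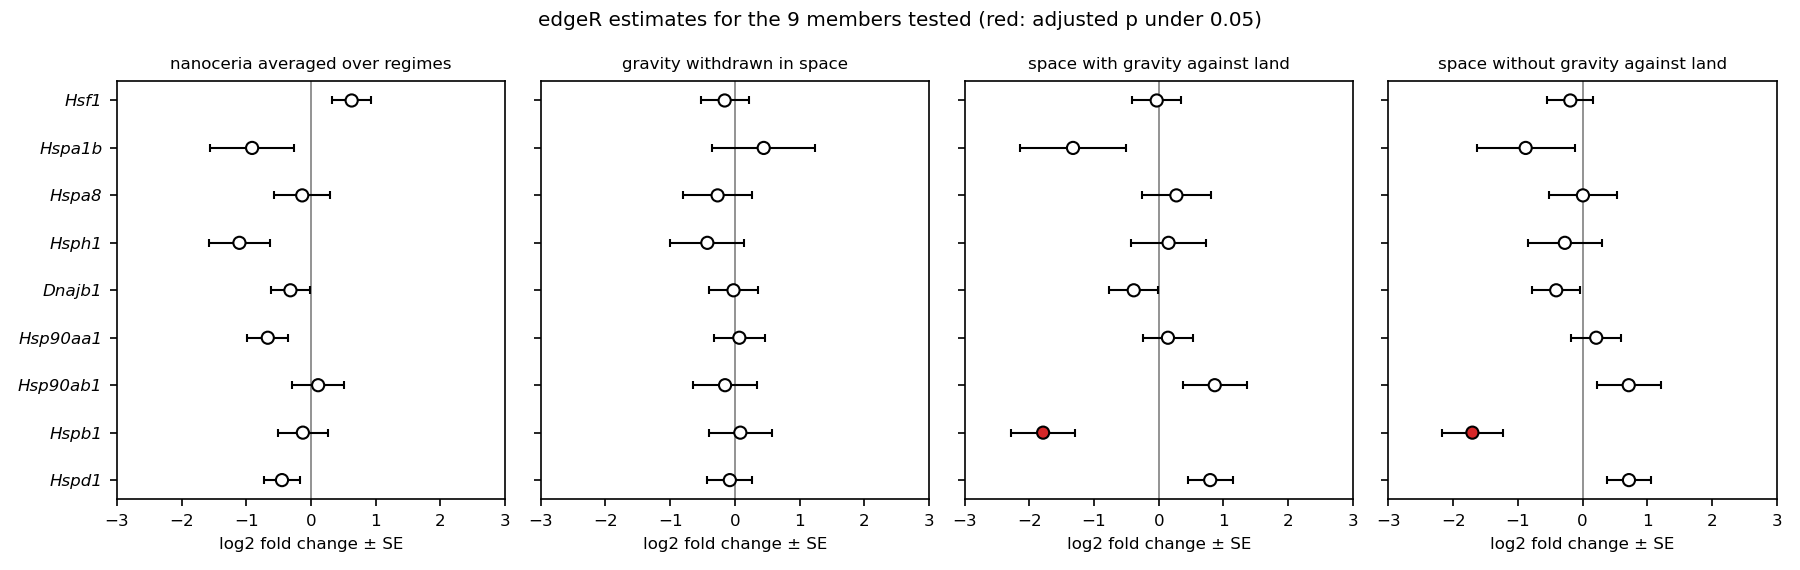
Estimated log2 fold change (horizontal axis, with standard error bars) of the 9 tested genes in the 4 averaged comparisons, positive where the first group named is higher; filled red points passed an adjusted p of 0.05. Hspb1 is the filled point in both comparisons with land, at −1.79 and −1.70.

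Hsf1 (ENSMUSG00000022556, GRCm38 chromosome 15, 76477445 to 76500972, plus strand), is the regulator of the response. Without nanoceria it read 7.02, 8.39 and 4.10 CPM in space without gravity, 5.61, 5.93 and 8.07 in space with gravity, and 6.04, 5.11 and 3.29 on land. With nanoceria it read 5.97, 8.17 and 7.11 in space without gravity, 6.33, 7.65 and 23.8 (the 2 counts of the smallest library) in space with gravity, and 11.5, 9.22 and 16.3 on land. On land the treated libraries thus lay above all untreated ones, and above all treated libraries of space without gravity, while in space treated and untreated libraries overlapped. Here and for the genes below, the share of all genes whose groups separate in this way is not given. Such separations are a description and are read as no result about the chaperones. The estimated nanoceria effect on land was 1.34 ± 0.51 (SE, log2, edgeR p 0.0169), which did not pass after adjustment over all genes (adjusted p 0.380). The test of a nanoceria effect that differs between regimes did not pass (edgeR adjusted p 0.902). A total of 748 counts stood behind this gene, and 99.5% of its exon 31-base words occur once in the genome.

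Hspa1b (ENSMUSG00000090877, chromosome 17, 34956436 to 34959238, minus strand), the stress-inducible cytosolic HSP70, had the widest spread of the tested members, with a gene-level biological coefficient of variation of 0.878. In space without gravity it read 18.7, 2.01 and 2.14 CPM in untreated libraries and 1.75, 6.31 and 12.4 in treated ones. In space with gravity it read 5.93, 2.15 and 38.4 in untreated libraries and 2.38, 1.28 and 0 in treated ones. On land it read 6.32, 18.2 and 8.87 in untreated libraries and 36.7, 7.01 and 3.91 in treated ones. Treated and untreated libraries overlapped in every regime, and the 2 larger treated libraries of space with gravity lay below all treated land libraries; the 0 of the smallest library cannot place it. Nanoceria in space with gravity gave −3.09 ± 1.30 (SE, log2, edgeR p 0.0286, adjusted p 1), with 1 of the 3 untreated libraries at 38.4 CPM and the others at 5.93 and 2.15. Space with gravity against land, both with nanoceria, gave −3.12 ± 1.30 (edgeR adjusted p 0.196).

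Hspa1a (ENSMUSG00000091971, chromosome 17, 34969190 to 34972156, minus strand) encodes nearly the same protein and lies beside Hspa1b. It had 42 counts in 10 of 18 libraries, of which 19 were in space with gravity without nanoceria, replicate 3, the library where Hspa1b was also highest. It was listed at 0 in all 3 libraries of space with gravity with nanoceria. Of its exon 31-base words, 63.8% also occur in Hspa1b, and 34.6% occur once in the genome; how the counting treated reads that match both genes is not given in the sources used here, so the division between them is uncertain. With both genes summed, no further member passed in any averaged comparison.

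Hspa8 (ENSMUSG00000015656, chromosome 9, 40800984 to 40810087, plus strand), the HSP70 that cells make at all times, read 217, 119.8 and 125 CPM in space without gravity in untreated libraries and 93.9, 108 and 129 in treated ones. In the gravity regime in space it read 161, 159 and 290.5 in untreated libraries and 229, 111 and 0 in treated ones. On land it read 87.2, 120.2 and 85.8 in untreated libraries and 80.3, 285 and 152 in treated ones. Treated and untreated libraries overlapped in every regime, while untreated space with gravity lay above all untreated land libraries. Against land the estimate was 0.27 ± 0.53 (SE, log2, edgeR adjusted p 0.760) with gravity and 0.01 ± 0.53 (adjusted p 0.998) without, and DESeq2 size factors turned them to −0.080 and −0.25. Copies of Hspa8 in the annotation, Gm26825 the most counted among them with 2341 counts beside 17349, share long stretches of its sequence.

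Hsph1 (ENSMUSG00000029657, chromosome 5, 149614287 to 149636376, minus strand), the HSP110 that resets HSP70 by exchanging its nucleotide, read 68.8, 10.9 and 17.3 CPM in space without gravity in untreated libraries and 11.9, 11.1 and 35.04 in treated ones. With gravity in space the untreated libraries read 29.2, 23.8 and 94.4 and the treated ones 33.9, 21.998 and 0. On land it read 25.3, 38.1 and 90.04 in untreated libraries and 26.3, 17.6 and 10.09 in treated ones. The highest library of each regime was an untreated one, but the treated and untreated groups overlapped in every regime. Its nanoceria estimate averaged over regimes was −1.11 ± 0.47 (SE, log2, edgeR p 0.0305, adjusted p 0.752). The estimate was negative in each regime, at −0.73 ± 0.80, −1.09 ± 0.83 and −1.50 ± 0.82 in the regimes without gravity in space, with gravity in space, and on land, and none passed.

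Dnajb1 (ENSMUSG00000005483, chromosome 8, 83608193 to 83612653, plus strand), the J protein that hands clients to HSP70, was among the steadier members. Without nanoceria it read 19.7, 23.2 and 15.9 CPM in space without gravity, 14.6, 15.7 and 29.1 in space with gravity, and 37.2, 36.1 and 24.3 on land. With nanoceria it read 17.8, 15.6 and 21.2, then 15.9, 28.1 and 0, then 15.2, 25.4 and 16.9 in the same order. Untreated land libraries were at the upper end, above all 3 of untreated space without gravity, and land as a whole overlapped both space regimes. Against land the estimates were −0.39 ± 0.38 (SE, log2, edgeR adjusted p 0.511) with gravity and −0.41 ± 0.37 (adjusted p 0.519) without.

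Hsp90ab1 (ENSMUSG00000023944, chromosome 17, 45567775 to 45573271, minus strand), the constitutive cytosolic HSP90, read 1892, 776 and 1962 CPM in space without gravity in untreated libraries and 1686, 1020.1 and 1733 in treated ones. In space with gravity it read 1599, 1932 and 2143 in untreated libraries and 2145, 2102 and 203 in treated ones. On land it read 745, 634 and 765 in untreated libraries and 1701, 998 and 864 in treated ones. Its median was 2102 CPM over 5 libraries of space with gravity and 815 CPM on land, and only 1 land library (1701 CPM) reached the range of those 5. The estimate with gravity against land was 0.87 ± 0.49 (SE, log2, edgeR adjusted p 0.237), and without gravity 0.71 ± 0.49 (adjusted p 0.382). Neither passed. Without nanoceria, both space groups lay above all untreated land libraries, and on land the treated libraries lay above the untreated ones (0.73 ± 0.70, adjusted p 0.764).

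Hsp90aa1 (ENSMUSG00000021270, chromosome 12, 110690605 to 110702728, minus strand), the stress-inducible HSP90, read 384, 287 and 397 CPM in space without gravity in untreated libraries and 367, 255.8 and 424 in treated ones. In the gravity regime in space it read 481, 367 and 538 in untreated libraries and 369.9, 232 and 119 in treated ones. On land it read 670.0, 393 and 255 in untreated libraries and 149.9, 276 and 207 in treated ones. The highest and, but for the smallest library, the lowest level were both on land. Its nanoceria estimate over regimes was −0.67 ± 0.32 (SE, log2, edgeR p 0.0503, adjusted p 0.752).

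The ratio of the inducible to the constitutive HSP90 does not depend on library scaling. This ratio and those of Hspb1 further on were chosen after the values were seen and carry no test. Untreated land libraries held 89.9, 62.1 and 33.4 Hsp90aa1 counts per 100 Hsp90ab1 counts. Treated land libraries held 8.81, 27.7 and 23.9, all below the untreated ones. In space without gravity the ratio was 20.2 to 37.0, and in 5 libraries of space with gravity 11.02 to 30.1. Only 37.5% of the exon 31-base words of Hsp90aa1 occur once in the genome, against 80.8% for Hsp90ab1; how the counting placed shared reads is not given in the sources used here.

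Hspd1 (ENSMUSG00000025980, chromosome 1, 55077835 to 55088243, minus strand), the chaperonin that folds proteins imported into mitochondria, read 119, 103 and 101 CPM in space without gravity in untreated libraries and 107, 85.01 and 124 in treated ones. With gravity in space the untreated libraries read 125, 121 and 176 and the treated ones 120.04, 100.4 and 35.7. On land it read 65.2, 82.6 and 97.6 in untreated libraries and 52.2, 66.1 and 35.8 in treated ones. Apart from the smallest library, all libraries of space with gravity lay above all 6 on land, and 5 of 6 libraries of space without gravity did. How many of all genes separate in this way is not given here. In space with gravity the 2 larger treated libraries lay just below the untreated ones, and the smallest rests on 3 counts (−0.65 ± 0.49, SE, log2, edgeR p 0.205). The estimate was 0.80 ± 0.35 (SE, log2, edgeR p 0.0342, adjusted p 0.125) with gravity and 0.72 ± 0.35 (p 0.0522, adjusted p 0.206) without. Neither passed. In an alternative chosen after seeing the data, a trend with gene length was taken out of each library. Hspd1 at 1.14 (edgeR adjusted p 0.0296) and Hsp90ab1 at 1.04 (adjusted p 0.0495) then passed with gravity against land. Of all genes 1569 passed in that setting, against 1613 in the main fit.

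Hspb1 (ENSMUSG00000004951, chromosome 5, 135887919 to 135889563, plus strand), a small heat shock protein that holds unfolding proteins without ATP and steadies actin filaments, read 31.7, 42.2 and 18.4 CPM on land in untreated libraries and 62.6, 42.3 and 80.1 in treated ones. In space with gravity it read 7.41, 6.96 and 41.5 in untreated libraries and 6.97, 12.1 and 0 in treated ones. In space without gravity it read 19.1, 16.1 and 8.91 in untreated libraries and 10.2, 16.7 and 9.82 in treated ones. With nanoceria, no space library reached the lowest land library. Without nanoceria the ranges met, through replicate 3 of space with gravity (41.5 CPM) and replicate 3 of land (18.4 CPM).

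Averaged over nanoceria, Hspb1 fell by 1.79 on the log2 scale (SE 0.49, 3.45-fold lower, edgeR p 0.00195, adjusted p 0.0255) in space with gravity against land. In space without gravity it fell by 1.70 (SE 0.48, 3.25-fold lower, p 0.00215, adjusted p 0.0469). The 2 space regimes differed from each other by 0.08 ± 0.48 (edgeR p 0.863). Taken with nanoceria alone, the estimates against land were −2.84 ± 0.75 (adjusted p 0.0822) with gravity and −2.34 ± 0.69 (adjusted p 0.106) without; taken without nanoceria they were −0.73 ± 0.66 and −1.07 ± 0.66 (adjusted p 0.535 and 0.502). On land the treated libraries lay above the untreated ones, without passing (edgeR adjusted p 0.633). The test of a nanoceria effect on Hspb1 that differs between regimes did not pass (edgeR adjusted p 0.861).

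The fall of Hspb1 moved with other properties of the libraries. When the dominant-gene share entered the model as a covariate the estimates were −0.55 (edgeR adjusted p 0.847) with gravity and −1.09 (adjusted p 0.330) without, and of all genes 1 and 6 passed. The share of dominant genes and the regime cannot be told apart here. Among all tested genes of 1000 to under 2000 bases (Hspb1 has 1031), 14.1% were called lower in space with gravity and the median estimate was −0.45, against 3.47% and a median of 0.20 among genes of 4000 bases or more. With the length trend taken out of each library Hspb1 still passed, at −1.50 (adjusted p 0.0413) with gravity and −1.59 (adjusted p 0.0430) without.

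Single libraries moved Hspb1 across the threshold. With gravity against land Hspb1 passed without each of 12 libraries in turn; it did not pass without untreated space with gravity replicate 1 or 2, treated space with gravity replicate 1, untreated land replicate 1 or 2, or treated land replicate 3 (adjusted p 0.0535 to 0.0910). Without untreated space with gravity replicate 3 it was −2.44 (adjusted p 0.0088). Without gravity against land it passed only without untreated space with gravity replicate 3, treated space with gravity replicate 3, untreated land replicate 3 or treated land replicate 2. Without each of the other 14 libraries (all 6 of space without gravity, replicates 1 and 2 of both groups of space with gravity, untreated land replicates 1 and 2, and treated land replicates 1 and 3) the adjusted p was 0.0533 to 0.131. The estimates over all 18 fits stayed between −2.44 and −1.56 with gravity and between −1.82 and −1.53 without.

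As counts within a library, free of scaling, Hspb1 per 100 counts of Hspd1 was 48.7, 51.1 and 18.9 on untreated land and 119.9, 63.9 and 224 on treated land. It was 5.92, 5.74 and 23.6 in untreated space with gravity, and 5.80 and 12.1 in the 2 larger treated libraries. It was 15.97, 15.6 and 8.85 in untreated space without gravity and 9.55, 19.7 and 7.89 in treated. The medians were 57.5 on land, 5.92 in space with gravity and 12.6 in space without gravity, and 1 land library lay within the range of space. Only 35.02% of the exon 31-base words of Hspb1 occur once in the genome, and 34.3% of those of Hspd1. Hsp25-ps1, a processed copy of Hspb1, shares 270 words with Hspb1 and held 132 counts beside the 2099 of Hspb1. With annotated copies summed into each member, an alternative chosen after seeing the data, Hspb1 passed in both comparisons, at −1.76 (adjusted p 0.0271) and −1.67 (adjusted p 0.0490).

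**Figure D3:**
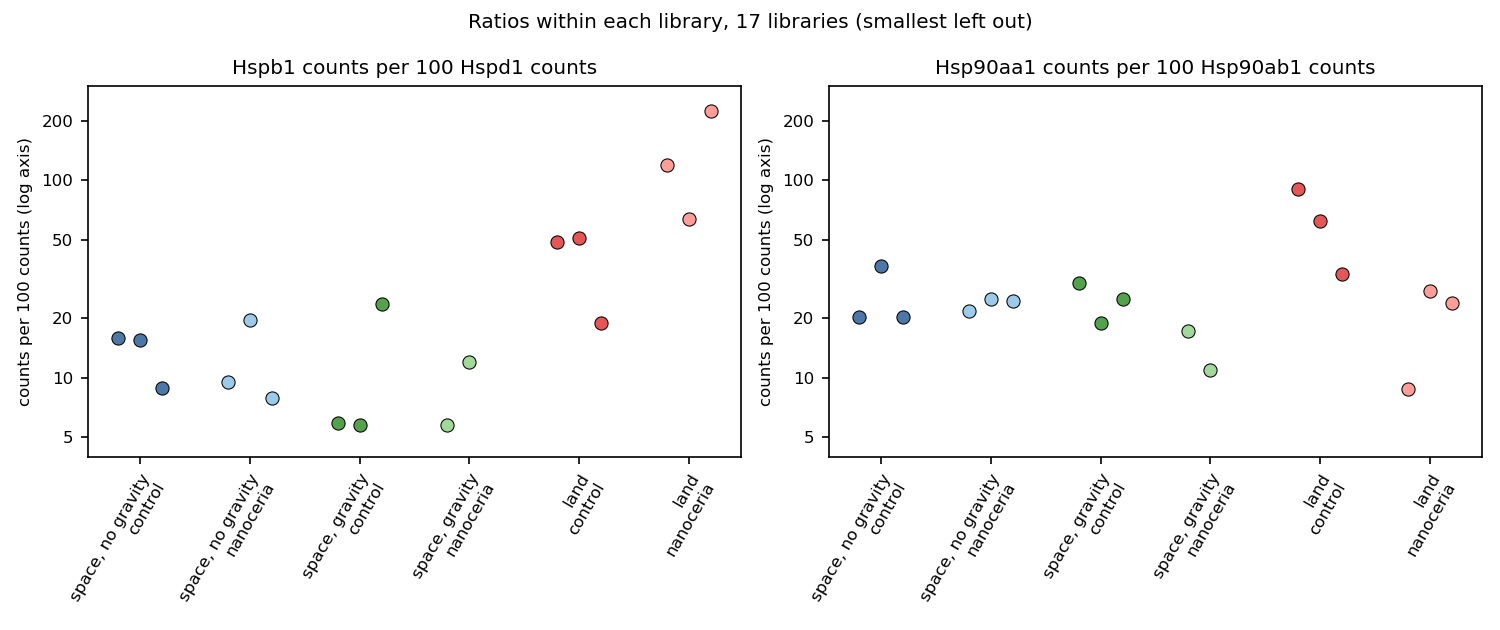
Counts of Hspb1 per 100 counts of Hspd1 (left) and of Hsp90aa1 per 100 counts of Hsp90ab1 (right) in 17 libraries, log vertical axes, by group; each point is 1 library and the smallest is left out. Land lies at 18.9 to 224 on the left, and untreated land lies at 33.4 to 89.9 on the right, above treated land at 8.81 to 27.7.

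Group against group, 0 of 81 member tests over 9 pairwise comparisons passed in edgeR, and 6 had an unadjusted p under 0.05. These were Hsf1 for nanoceria on land (10.2% of all genes at that p), Hspa1b for nanoceria in space with gravity (4.46%), Hspb1 and Hspa1b for space with gravity against land with nanoceria (20.5%), and, among treated libraries, Hspb1 and Hspd1 for space without gravity against land (19.2%). After adjustment 0% of all genes passed in 7 of the 9, 0.00865% in space with gravity against land with nanoceria, and 0.0433% in space without gravity against land with nanoceria. DESeq2 called 3 member tests, Hspb1 in both of those last comparisons (−3.15 and −2.65) and Hspa1b with gravity (−3.34). Limma called 2, Hspb1 (−1.84) and Dnajb1 (−1.02) with gravity against land without nanoceria. The percentages above are those of edgeR. The share of all genes that DESeq2 or limma called in these pairwise comparisons is not given here. In the averaged comparisons with land, DESeq2 called 2691 genes with gravity and 1524 without, against 1613 and 607 in edgeR. The pairwise calls by DESeq2 and limma are therefore read as no result about the chaperones. The test of a nanoceria effect that differs between regimes gave 0 of 9 members and 0% of all genes; the smallest member p was 0.107, for Hspa1b.

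Within groups, several chaperones peaked in the same library. Replicate 3 of untreated space with gravity was the highest of its 3 for all 10 genes, with Hspa1a at 19 counts there. The share of all genes highest in that library is not given here, so this is read as no result about the chaperones. Of the 36 pairs among the 9 tested genes, 5 had the same highest library in 5 of 6 groups: Hspa1b with Hsph1, Hspa1b with Hspa8, Hsp90ab1 with Hsph1, Hspa8 with Hspd1, and Hspd1 with Hsph1. Hspa1b and Hsph1 are shown because their log2 levels had the highest Pearson correlation of the 36 pairs over 17 libraries (0.62). The choice was made after the values were seen. Across libraries 12 of the 36 pairs had a correlation below 0, Hspb1 with Hspd1 the lowest at −0.68. Taken within groups, 30 of the 36 were above 0. In untreated space with gravity replicate 3, Hspa1b was 38.4 CPM and Hsph1 94.4, and in untreated space without gravity replicate 1 they were 18.7 and 68.8. For Hspa1b and Hsph1 the exception was untreated land, where Hspa1b was highest in replicate 2 (18.2 CPM) and Hsph1 in replicate 3 (90.04 CPM). Hspb1 peaked with Hspa1b in 3 of 6 groups. No test was made of these matches, no count of such matches over all genes is given, and libraries share depth and composition across genes.

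**Figure D4:**
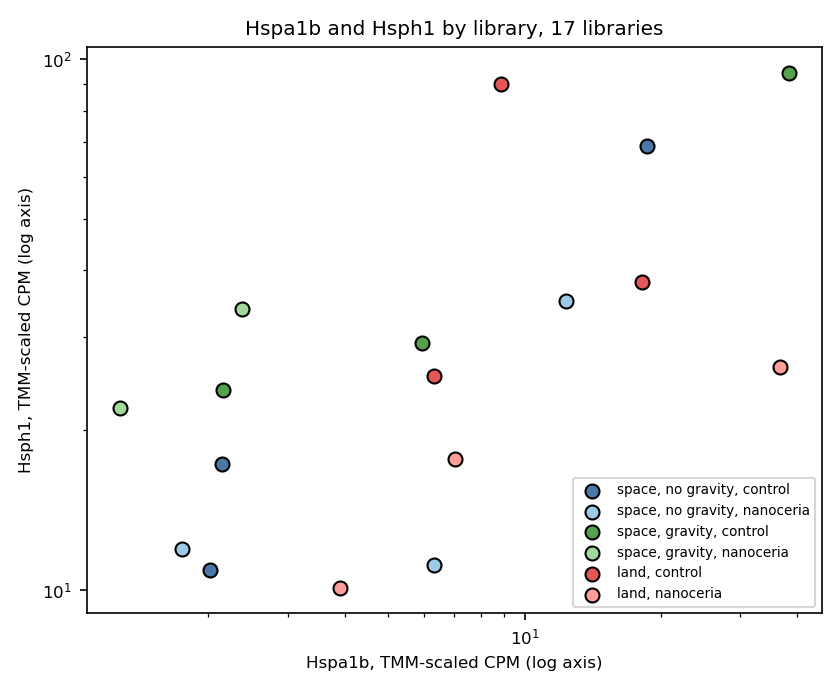
Hspa1b (horizontal axis) against Hsph1 (vertical axis), TMM-scaled CPM on log axes, 1 point per library in 17 libraries, coloured by group. The library at the upper right is untreated space with gravity replicate 3, at 38.4 and 94.4 CPM.

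Among 3086 genes with a symbol and an average log2 CPM of at least 4, the pattern nearest to each member over 17 libraries was found by Pearson correlation of log2 CPM, as a description. Hsp90ab1 was nearest to Srsf1 (0.96) and Sf3b2 (0.95), and Hspd1 to Ndel1 (0.97) and Xrn2 (0.91). Hspb1 was nearest to Ftl1 (0.91), a ferritin subunit, and its copy Ftl1-ps1 (0.91). Hsp90aa1 was nearest to Psmc6 (0.85), a proteasome subunit, and Chordc1 (0.84), a partner of HSP90. Dnajb1 was nearest to Txndc17 (0.86) and Hspe1 (0.86), the mitochondrial co-chaperonin. Hsf1 was nearest to Ppp2r1a (0.87) and Capns1 (0.75), and Hspa8 to Smim15 (0.78) and Usp14 (0.75). Hspa1b (Sem1 0.75, Gm26825 0.74) and Hsph1 (Plekhb2 0.77, Topors 0.72) had the loosest neighbours. The libraries behind these values share depth and the share of dominant genes.

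Other genes of the chaperone network were read from lists. With gravity against land 14% of all genes passed (7.22% higher, 6.74% lower), and 5.25% did without gravity; counts of 0 to 2 called genes in lists of this size are read as no result about a list. Of the partners and regulators of HSF1, 7 of 8 were tested and 1 rose in space with gravity against land: Sirt1, a deacetylase that acts on HSF1, at 2.51 ± 0.59 (SE, log2, edgeR adjusted p 0.0131). Sirt1 read 9.09, 4.38 and 4.45 CPM in untreated space with gravity and 2.95, 1.28 and 2.63 on untreated land. Treated libraries read 6.65, 14.8 and 47.7 (the smallest library) in space with gravity and 2.59, 1.40 and 0 on land, so the treated groups lay further apart than the untreated ones. Of 16 HSP90 relatives and partners, 1 fell: Ahsa1, which speeds the ATP cycle of HSP90, at −1.31 ± 0.36 (edgeR adjusted p 0.0249). Ahsa1 read 5.22, 5.50 and 7.90 CPM in untreated space with gravity against 13.5, 16.9 and 11.8 on untreated land, without overlap. The call also averages over the treated groups, whose levels of Ahsa1 are not printed here. Fkbp4, another partner, was −1.06 ± 0.34 (adjusted p 0.0717) in space without gravity against land.

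Of 11 exchange and degradation partners of HSP70, 1 rose with gravity against land, where 7.22% of all genes were called higher. That gene was Bag4 at 2.37 ± 0.68 (SE, log2, edgeR adjusted p 0.0298). Bag4 read 12.8, 28.2 and 68.0 CPM in untreated space with gravity and 2.95, 3.32 and 3.61 on untreated land. In treated space with gravity Bag4 read 6.65 and 2.07 in the 2 larger libraries, below the untreated ones, and 0 in the smallest, which cannot show a level of that size. Bag4 shares 1042 of its 7032 exon bases with Gm17484 on the opposite strand. Of 5 tested other small heat shock proteins, Hspb2 rose in both comparisons with land, and no other passed. Its estimates were 3.07 ± 0.82 (edgeR adjusted p 0.0230) with gravity and 3.48 ± 0.81 (adjusted p 0.0252) without. Of all genes 7.22% and 2.81% were called higher in these comparisons. Hspb2 shares 252 of its 834 exon bases with Cryab on the opposite strand, and the use of strand in counting is not given in the sources used here, so its value is uncertain. It read 1.03, 8.77 and 19.1 CPM in untreated space with gravity, 15.0, 2.35 and 7.31 in untreated space without gravity, and 2.25, 1.02 and 0 on untreated land. Levels of Hspb2 in the treated groups, which also enter these calls, are not printed here.

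Of 6 prefoldin subunits, 1 fell with gravity against land, where 6.74% of all genes were called lower: Pfdn6 at −1.37 ± 0.42 (SE, log2, edgeR adjusted p 0.0386). Of 10 tested heat shock factor targets outside the members, the metallothioneins Mt1 at −2.10 ± 0.51 (adjusted p 0.0152) and Mt2 at −1.93 ± 0.45 (adjusted p 0.0129) fell in the same comparison. In all 4 averaged comparisons 0 of 9 other HSP70 and HSP110 genes, 0 of 19 J proteins, 0 of 9 other chaperonins and 0 of 10 mitochondrial proteostasis genes passed. Hspe1, the partner of Hspd1, was −0.68 ± 0.36 (adjusted p 0.199) with gravity against land, opposite in sign to Hspd1 at 0.80; the genes share 112 exon bases on opposite strands. Of the temperature-responsive RNA-binding genes, Rbm3 was −0.16 ± 0.43 (adjusted p 0.834) and Cirbp −0.25 ± 0.71 (adjusted p 0.847) with gravity against land, and 0.15 ± 0.42 and 0.25 ± 0.70 without gravity (adjusted p 0.934 and 0.861). Ppid had the smallest p of the HSP90 partners for nanoceria, at −1.15 ± 0.33 (p 0.00287, adjusted p 0.723).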

How the data were processed

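Counts per gene were deposited by the authors, 1 library per file, whole numbers with gene coordinates and lengths per the file headers. The submitters' processing notes name CASAVA, Trimmomatic 0.36.29, STAR, Subread and featureCounts with GRCm38.p6, with no role or order; settings for strand and for reads that match several places are not given in the sources used here. The 18 small RNA samples were not analysed here. Tests used edgeR 4.0.16 under R 4.3.3, with filterByExpr over 6 groups (11558 genes left), TMM scaling, a group-means model over all 18 libraries (12 residual degrees of freedom, common biological coefficient of variation 0.659), robust quasi-likelihood F-tests and Benjamini-Hochberg adjustment over all genes (0.05). The 4 averaged comparisons, 9 pairwise ones and 2 tests of differing nanoceria effects were made. The scripts were tested on simulated data. Levels are TMM-scaled CPM; values per kilobase use the deposited length. Words of 31 bases were counted in the GRCm38.p6 genome with pysam 0.24.0.

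The members and lists were chosen with earlier results of these data known. All members are reported; of each list, genes past the threshold (at most 4 in each direction) and otherwise the gene with the smallest p qualified, and the 2 genes most like each member. Of the genes that qualified only by the smallest p, a few are printed. Fkbp4, Hspe1 and Ppid are among these, and Rbm3 and Cirbp were named whatever their values. Alternatives were DESeq2 1.42.0 and its size factors, limma 3.58.1 voom, other filters (none, or a mean of at least 50 counts), the compared groups only, dominant genes removed or as a covariate, Hspa1a and Hspa1b summed, and each library left out. Summed copies (at least 100 shared words) and removal of a length trend were added after seeing the data.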

Additional observations from a re-analysis of the deposited data

How the results depend on the processing

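Of 379 comparisons of 36 member estimates with another setting, 338 kept their direction and side of the threshold, 3 fell short of it, 2 newly passed and 36 changed sign. All 36 sign changes were estimates that had not passed. With gravity against land 0 members passed with the dominant share as covariate, 0 with the compared groups only (Hspb1 −1.80, edgeR adjusted p 0.0555) and 3 with the length trend removed. Over all genes, removal of the length trend gave 1569 calls there, 805 higher and 764 lower, against 1613 in the main fit. Without gravity against land 0 passed with the covariate. In the pairwise comparisons 0 member tests passed in the main fit, 4 without a filter, 3 in the DESeq2 test and 2 with limma voom. Those without a filter and in DESeq2 were all of Hspb1 or Hspa1b, and those of limma were of Hspb1 and Dnajb1. Among them was Hspb1 with gravity against land with nanoceria in the DESeq2 test (−3.15, adjusted p 0.0038). The share of all genes called in the pairwise comparisons under these other settings is not given here. DESeq2 size factors moved the median estimate of all genes to −0.39 with gravity against land and −0.28 without, and the calls over all genes from 834 higher and 779 lower to 628 and 1558, and from 325 and 282 to 261 and 552. The covariate left 1 and 6 of 1613 and 607 calls over all genes, the compared groups only 1072 and 387, and the DESeq2 test gave 2691 and 1524. Without a filter all-gene calls were 214 for nanoceria, 229 for gravity withdrawn and 1466 without gravity against land; limma voom gave 989 in the last. With DESeq2 size factors, reversed log2 estimates were Dnajb1 0.067, Hspd1 0.0053 for gravity withdrawn, Hspa8 −0.080, Hsp90aa1 −0.21, Hsph1 −0.16 with gravity against land and Hspa8 −0.25, Hsp90aa1 −0.071 without gravity against land. In the DESeq2 test, reversed log2 estimates were Hsf1 0.0067, Dnajb1 0.033 for gravity withdrawn, Hspa8 −0.065, Hsp90aa1 −0.20, Hsph1 −0.17 with gravity against land and Hspa8 −0.25, Hsp90aa1 −0.072 without gravity against land. With copies summed, reversed log2 estimates were Hspa8 −0.077 without gravity against land. With the length trend removed, reversed log2 estimates were Hspb1 0.040 for nanoceria, Hsp90aa1 −0.28, Hspb1 −0.086 for gravity withdrawn, Hsf1 0.28, Hsph1 −0.10 with gravity against land and Hspa8 −0.079 without gravity against land. With limma voom, reversed log2 estimates were Hsp90ab1 −0.34, Hspb1 0.060 for nanoceria and Hsp90ab1 0.63, Dnajb1 0.058 for gravity withdrawn. At a mean of at least 50 counts, reversed log2 estimates were Dnajb1 0.035 for gravity withdrawn, Hsp90aa1 −0.087, Hsph1 −0.042 with gravity against land and Hspa8 −0.20, Hsp90aa1 −0.017 without gravity against land. Without a filter, reversed log2 estimates were Hsf1 0.065 with gravity against land. With the share of dominant genes as covariate, reversed log2 estimates were Hspb1 −0.54 for gravity withdrawn, Hsf1 0.36, Hsph1 −0.55, Dnajb1 0.31 with gravity against land and Hspa8 −0.0091 without gravity against land. The cause of these reversals was not tested.

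Leaving out each of 18 libraries, 0 to 1 members passed with gravity against land, 0 to 1 without gravity against land, and 0 in the other comparisons. The estimates that changed sign in at least 1 of the 18 fits ranged as follows. Hspa8 −0.44 to 0.053, Hsp90ab1 −0.016 to 0.32, Hspb1 −0.29 to 0.33 for nanoceria. Hsf1 −0.33 to 0.022, Hspa1b −0.51 to 1.40, Hspa8 −0.49 to 0.18, Hsp90aa1 −0.067 to 0.30, Hsp90ab1 −0.41 to 0.029, Hsph1 −1.04 to 0.019, Hspb1 −0.13 to 0.75, Dnajb1 −0.14 to 0.25, Hspd1 −0.21 to 0.074 for gravity withdrawn. Hsf1 −0.24 to 0.16, Hspa8 −0.16 to 0.60, Hsp90aa1 −0.070 to 0.38, Hsph1 −0.27 to 0.53 with gravity against land. Hspa8 −0.14 to 0.32, Hsph1 −0.85 to 0.10 without gravity against land. A group that loses a library keeps 2, and its spread is taken from all groups. No paired analysis was possible because no label ties a library of 1 group to one of another, and numbers were given in record order. Without length, in plain CPM, 7 of 10 members changed rank by 1 or 2 places, and Hsp90ab1, Hsp90aa1 and Hspa1a kept theirs. In the smallest library 3 counts correspond to 35.7 CPM, so 6 members at 0 there are not shown to be absent. Among them, Hspa8 read 229 and 111 CPM in replicates 1 and 2 of that group, above that level. The cause of its 0 was not tested. Hspa1a was too thinly counted for a test.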
